A study of Mus musculus with 6 samples.

Results

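The 10 genes described here mark the steps by which oligodendrocyte precursor cells become myelin-forming oligodendrocytes, and they were taken out of 38355 genes listed in a comparison of mouse cortex at 6 and 16 months of age. They were chosen by name as genes of the lineage and with their values at both ages in view, so that their age differences are given as a description, without a test. Pdgfra and Cspg4 stand for the precursor, Gpr17, Bmp4 and Enpp6 for the committed stage that follows it, Olig1, Olig2 and Sox10 for the transcription factors of the lineage, and Neu4 and Myrf for the steps around differentiation. RNA with polyA tails was sequenced from whole cortical hemispheres of C57BL/6 mice, an inbred strain for which the labels name no transgene and no treatment in either group. There were 3 samples per age. The housing text among the labels names 3 months for the younger mice, while the age, title and source labels give 6 months, which was used here. The labels do not say whether each sample was a single mouse, and p-values therefore measure only the spread between these samples. All 10 genes passed the filter on low counts, as did 17110 other genes.

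Oligodendrocyte precursor cells persist in the adult brain, where they divide, sense growth factors and can still produce new oligodendrocytes. On the way they lose the receptor for platelet-derived growth factor and the proteoglycan NG2, pass through a short committed stage, and then switch on the myelin genes under the control of Sox10, the Olig factors and Myrf. Precursors and committed cells are a minority in adult cortex, and their transcripts are diluted in a sample of the whole tissue by those of neurons and other glia.

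The 6 samples held from 29797253 to 46519280 counts on genes, so that 3 counts, the limit that a count of 0 allows, corresponded to between 0.064 and 0.1 CPM (counts per 1000000 counts on genes, after TMM scaling). Of 17120 tested genes, 286 (1.67%) were called at an adjusted p under 0.05, with 134 (0.783%) higher and 152 (0.888%) lower at 16 months, and 2987 (17.4%) had an unadjusted p under 0.05. The median log2 fold change of all tested genes was 0.0014, and the median SD of log2 CPM was 0.0626 at 6 months and 0.128 at 16 months. Replicates 1 and 2 at 16 months stood apart from the other samples: the deviation of a gene from the mean of its age correlated across genes with GC content at r = 0.588 in replicate 1 and r = -0.582 in replicate 2, against values between -0.130 and 0.160 in the other 4 samples. All 8 marker genes of cortical excitatory neurons were detected, with a summed level of 4465 to 4722 CPM at 6 months and 4627 to 5357 CPM at 16 months. Marker lists of neighbouring regions were not equal between the ages: 7 of 12 thalamus markers (summed level 279 to 287 CPM at 6 months and 297 to 336 CPM at 16 months) and 4 of 8 dentate gyrus markers (148 to 155 CPM and 193 to 204 CPM) were called higher at 16 months, and none of either list was at 0 in all samples. These were Prkcd, Tcf7l2, Shox2, Plekhg1, Ramp3, Synpo2 and Tnnt1 of the thalamus, and Pdzd2, Lct, C1ql2 and Dsp of the dentate gyrus. Whether the share of these regions in the dissected tissue had a part in the values of the oligodendrocyte genes was not tested.

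Sequences just upstream of a gene, its proximal promoter, are where general and lineage factors can bind. Stretches from RefSeq (GRCm38.p6) are shown for a precursor gene, Pdgfra, for Neu4, and for the committed stage genes Bmp4 and Enpp6, the first pair having samples of the 2 ages that lay apart and the second pair samples that overlapped. They end before the first annotated base of the transcript, and capitals mark the E-box CANNTG, the motif of basic helix-loop-helix factors such as Olig1 and Olig2, and the letters ACAAAG or ACAATG, a core bound by Sox factors, each searched on both strands. The Pdgfra stretch is chr5:75152001-75152250 on the plus strand, Neu4 is chr1:94020243-94020450 on the plus strand, Bmp4 is chr14:46390670-46390919 on the minus strand, and Enpp6 is chr8:46986637-46986886 on the plus strand.
Pdgfra: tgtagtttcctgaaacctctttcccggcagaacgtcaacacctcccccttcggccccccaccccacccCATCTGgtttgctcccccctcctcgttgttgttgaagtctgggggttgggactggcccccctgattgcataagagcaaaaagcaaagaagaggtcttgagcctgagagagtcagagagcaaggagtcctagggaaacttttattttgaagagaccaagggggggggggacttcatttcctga
Neu4: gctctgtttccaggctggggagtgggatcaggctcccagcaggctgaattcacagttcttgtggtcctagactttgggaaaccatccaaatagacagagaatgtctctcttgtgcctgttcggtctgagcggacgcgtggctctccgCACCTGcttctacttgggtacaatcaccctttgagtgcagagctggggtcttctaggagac
Bmp4: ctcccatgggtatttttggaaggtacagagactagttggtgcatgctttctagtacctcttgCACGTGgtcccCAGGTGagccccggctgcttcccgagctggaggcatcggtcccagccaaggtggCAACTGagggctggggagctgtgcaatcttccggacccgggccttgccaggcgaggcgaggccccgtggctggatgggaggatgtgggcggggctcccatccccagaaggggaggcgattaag
Enpp6: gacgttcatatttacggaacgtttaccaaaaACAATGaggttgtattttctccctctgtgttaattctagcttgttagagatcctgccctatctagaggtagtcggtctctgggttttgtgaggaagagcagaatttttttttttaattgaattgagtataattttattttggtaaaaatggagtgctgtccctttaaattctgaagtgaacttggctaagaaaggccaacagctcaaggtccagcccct

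The Pdgfra and Neu4 stretches each hold 1 E-box and no Sox core, Bmp4 holds 3 E-boxes and no Sox core, and Enpp6 holds 1 Sox core and no E-box. Among 32851 promoters of the table, 66.2% hold an E-box and 25.2% a Sox core within 250 bases, and within the 208 bases shown for Neu4 these shares are 60.3% and 22%. The upstream stretches of Cspg4 (179 bases) and Olig2 (157 bases) hold neither. Within 179 bases 55.3% of the promoters hold an E-box and 19.1% a Sox core, and within 157 bases 50.8% and 16.9%. A stretch was found for 6 of the 10 genes. These matches describe letters in a window, and their relation to the measured levels was not tested.

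Pdgfra encodes the alpha receptor for platelet-derived growth factor, the main mitogen and survival signal of precursor cells. It lies at chr5:75152292-75198215 on the plus strand (GRCm38), and exons of Gm42802 and Gm42803 on the minus strand overlap its exons. Its level was 57.5, 57.8 and 58.0 CPM in replicates 1 to 3 at 6 months and 68.8, 68.4 and 65.3 CPM at 16 months. The samples of the 2 ages did not overlap, and those at 6 months had a coefficient of variation of 0.427%, less than the 2.09% expected from counting alone. The log2 fold change was 0.22 ± 0.05 (SE, n = 3 per age), or 1.17-fold, and remained between 0.19 and 0.25 in every alternative analysis. Pdgfra was not called in the analysis of all samples, but was called in 6 of 14 alternatives, among them those without replicate 1 or without replicate 2 at 16 months. In a sample of whole tissue, more cells of a type and more RNA per cell cannot be told apart, here and for every gene below.

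Cspg4 encodes the NG2 proteoglycan of the precursor surface, which pericytes of blood vessels also carry. It lies at chr9:56865033-56899870 on the plus strand. Its level was 15.4, 13.1 and 12.5 CPM at 6 months and 19.3, 13.8 and 15.8 CPM at 16 months. The ages overlapped, and replicate 1 was the highest sample within each age. The log2 fold change was 0.25 ± 0.12 (SE), against 0.22 ± 0.05 (SE) for Pdgfra. It was between 0.11 without replicate 1 at 16 months and 0.35 without replicate 2 at 16 months, where it was called. Pericyte markers had a median log2 fold change of -0.09 over 10 genes, of which 8 were below and 2 above 0, beside 50.3% of all tested genes above 0. Of these markers 0 were called, and their summed level was 145 to 150 CPM at 6 months and 135 to 141 CPM at 16 months.

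Gpr17 encodes an orphan G protein-coupled receptor of the committed precursor that is lost again as the cell matures. It lies on chromosome 18 from 31942997 to 31949636 on the minus strand, and 188 bases of its exons (3.62% of their length) overlap exons of Lims2 on the plus strand. Its level was 39.8, 37.6 and 37.3 CPM at 6 months and 62.3, 57.7 and 58.5 CPM at 16 months. Every sample at 16 months lay above every sample at 6 months, with a gap between the nearest samples far wider than the spread of either age, whose SDs were 1.37 and 2.47 CPM. The log2 fold change was 0.64 ± 0.06 (SE), or 1.56-fold, the highest of the 10 genes. It was called in the analysis of all samples and in 14 of 14 alternatives, with log2 fold changes of 0.59 to 0.67. Lims2 itself had a log2 fold change of 0.13 (edgeR quasi-likelihood test, Benjamini-Hochberg adjusted p = 0.564). Reads that matched more than 1 gene were set aside as ambiguous, at 1.415% to 1.568% of uniquely aligned reads. Whether reads over the bases shared with Lims2 were among them is not known, as the strand setting is not given.

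Bmp4 encodes a secreted bone morphogenetic protein that committed precursors transcribe. It lies at chr14:46383520-46390669 on the minus strand, with 89 bases of its exons shared with Gm15217 on the plus strand. It was the least abundant member, at 69 to 92 counts per sample. Its level was 1.96, 2.3001 and 1.93 CPM at 6 months and 2.11, 2.20 and 2.20 CPM at 16 months. The samples of 16 months lay within the range of those at 6 months, and the log2 fold change was 0.09 ± 0.13 (SE). At this depth counting alone gives a coefficient of variation of 11.1% at 6 months, so that a difference of the size seen for Pdgfra was not detectable for this gene.

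Enpp6 encodes a choline-specific glycerophosphodiesterase that is switched on in newly forming oligodendrocytes. It lies at chr8:46986887-47096762 on the plus strand. Its level was 8.36, 7.37 and 7.08 CPM at 6 months and 6.999, 8.01 and 6.94 CPM at 16 months. The ages overlapped, and the highest and the lowest of the 6 samples came from different ages. The log2 fold change was -0.06 ± 0.10 (SE), and it turned to 0.02 without replicate 1 at 6 months. Within the committed stage, Gpr17 was therefore higher at 16 months with separate samples while Bmp4 and Enpp6 had overlapping ones.

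**Figure D1:**
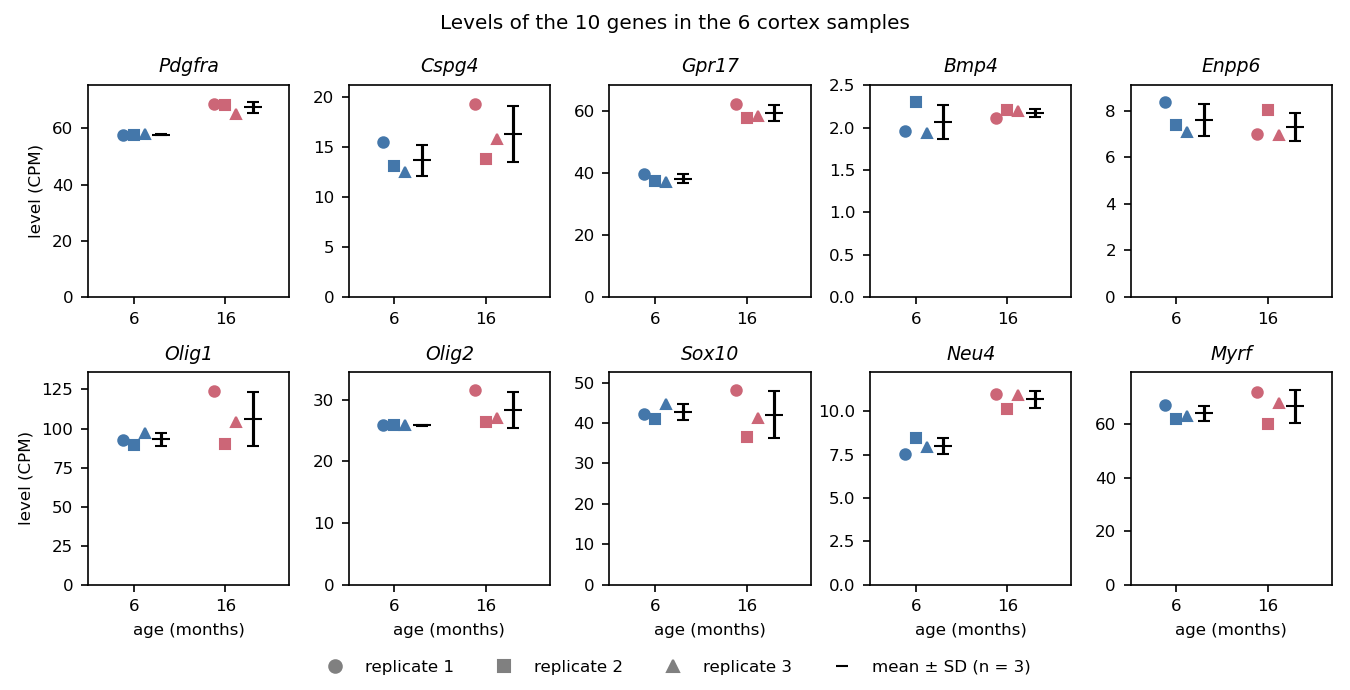
Levels of the 10 genes in CPM (y axis, from 0, scaled per gene) against age in months (x axis), with 1 point per sample, the marker giving the replicate, and the bar the mean ± SD of 3 samples. Gpr17 went from 37.3 to 39.8 CPM at 6 months to 57.7 to 62.3 CPM at 16 months, while the samples of Bmp4 and Enpp6 overlap.

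Neu4 encodes a sialidase, an enzyme that removes sialic acid from glycoproteins and glycolipids, and is transcribed in precursors and early oligodendrocytes. It lies at chr1:94020451-94028334 on the plus strand. Its level was 7.57, 8.47 and 7.94 CPM at 6 months and 11.01, 10.1 and 10.9 CPM at 16 months. The samples of the 2 ages did not overlap, and the coefficient of variation at 6 months, 5.62%, was that of counting alone (5.64%). The log2 fold change was 0.43 ± 0.08 (SE), or 1.34-fold. Neu4 was called in the analysis of all samples and in 10 of 14 alternatives. The call was lost when any 1 of the 3 samples at 6 months or replicate 3 at 16 months was left out, with log2 fold changes that stayed between 0.39 and 0.47 over all alternatives.

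Myrf encodes a membrane-bound transcription factor that starts and maintains the myelin programme. It lies at chr19:10208272-10240748 on the minus strand. Its level was 67.2, 61.9 and 62.9 CPM at 6 months and 72.2, 60.1 and 68.1 CPM at 16 months, and both the highest and the lowest sample were from 16 months. The log2 fold change was 0.06 ± 0.07 (SE), and 0.0009 without replicate 1 at 16 months.

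Olig1, Olig2 and Sox10 are present from the precursor to the mature oligodendrocyte and therefore do not mark a single stage. Olig1 and Olig2 are neighbours on chromosome 16, Olig2 at chr16:91225457-91228677 and Olig1 at chr16:91269772-91271933, both on the plus strand, and Sox10 lies at chr15:79154908-79165240 on the minus strand. The single exon of Olig1 shares 157 bases with exons of Gm15966 on the minus strand. Whether reads there were counted or set aside as ambiguous is likewise not known. Olig1 was at 92.3, 89.4 and 97.1 CPM at 6 months and 124, 90.0 and 104 CPM at 16 months, with overlapping ages, and had a log2 fold change of 0.19 ± 0.10 (SE), which was 0.06 without replicate 1 at 16 months and 0.30, and called, without replicate 2 at 16 months. Olig2 was at 25.9, 25.8 and 25.8 CPM at 6 months and 31.6, 26.4 and 27.0 CPM at 16 months. The Olig2 samples of the 2 ages did not overlap, although 2 of those at 16 months lay close to the younger ones. The Olig2 samples at 6 months had a coefficient of variation of 0.164%, less than the 3.125% expected from counting alone. The log2 fold change of Olig2 was 0.13 ± 0.07 (SE), or 0.05 without replicate 1 at 16 months and 0.18 without replicate 2 at 16 months. Sox10 was at 42.2, 41.1 and 44.8 CPM at 6 months and 48.1, 36.6 and 41.3 CPM at 16 months. Both extremes of Sox10 were samples of 16 months, and its log2 fold change of -0.02 ± 0.09 (SE) turned to 0.01 without replicate 3 at 6 months and to 0.07 without replicate 2 at 16 months.

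The levels of several members followed replicates 1 and 2 at 16 months. Replicate 1 at 16 months was the highest of all 6 samples for 8 of the 10 genes, the exceptions being Bmp4 and Enpp6, and 7 of the 10 had a larger SD of log2 CPM at 16 months than at 6 months. The transcripts of Sox10, Olig1, Cspg4, Olig2 and Myrf had GC contents of 57.6% to 61.8%, and in each of these 5 genes replicate 1 was the highest and replicate 2 the lowest of the samples at 16 months. Gpr17 and Neu4 had the same order of these samples, and Pdgfra, Bmp4 and Enpp6 did not. Gpr17 (53.4%), Bmp4 (52.5%), Neu4 (49.7%), Pdgfra (48.1%) and Enpp6 (42.3%) had a lower GC content. With offsets for GC content and transcript length, the log2 fold changes were 0.59 for Gpr17, 0.40 for Neu4, 0.19 for Pdgfra, 0.17 for Cspg4, 0.15 for Olig1 and -0.07 for Sox10. Gpr17, Neu4, Pdgfra and Olig1 were called higher in that analysis, which called 13.9% of all tested genes, 7.16% higher and 6.72% lower. The part of GC content in the levels of the 2 libraries was not tested beyond these offsets.

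**Figure D2:**
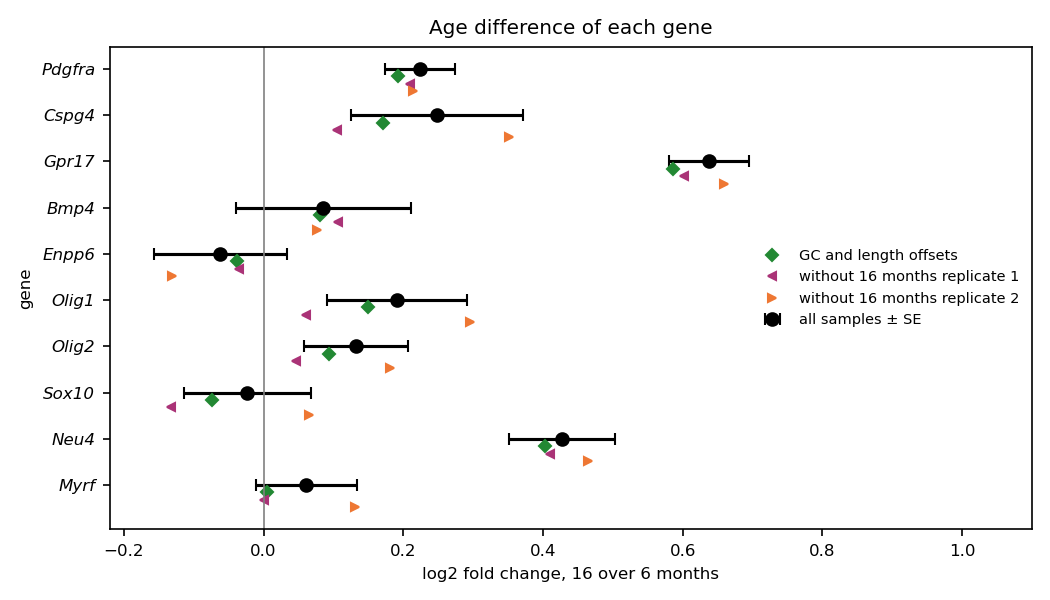
Log2 fold change of 16 over 6 months (x axis) for each of the 10 genes (y axis), with the black point and bar giving the value from all samples ± SE and the coloured points the values with GC and length offsets or without 1 sample at 16 months. Gpr17 and Neu4 stay to the right of the other genes in all 4 analyses, and Sox10 lies on both sides of 0.

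Of the 10 genes, 2 were called higher (Gpr17 and Neu4) and 0 lower, beside 0.783% and 0.888% of all tested genes, and 8 had a log2 fold change above 0, beside 50.3% of all tested genes, with a median of 0.16. For 4 genes (Pdgfra, Gpr17, Olig2 and Neu4) all samples at 16 months lay above all at 6 months, and for 0 genes below, beside 12.2% and 11.5% of all tested genes. These counts describe genes that were selected with this comparison known and carry no test. The count of called members was 1 without any single sample at 6 months or replicate 3 at 16 months, and 5 without replicate 2 at 16 months, when Pdgfra, Cspg4 and Olig1 were called as well. Of all genes tested, 0.318%, 0.328% and 0.277% were called without replicate 1, 2 or 3 at 6 months, and 5.73%, 12.7% and 0.335% without replicate 1, 2 or 3 at 16 months.

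The committed stage was set against the precursor within each sample by the log2 ratio of the summed CPM of Gpr17, Bmp4 and Enpp6 to that of Pdgfra and Cspg4. The ratio was -0.54, -0.58 and -0.61 at 6 months and -0.30, -0.28 and -0.26 at 16 months. All 3 samples at 16 months were above those at 6 months, with means of -0.58 ± 0.03 and -0.28 ± 0.02 (SD, n = 3), a difference of 0.30. Both sums were larger at 16 months, the committed one at 69.0 against 47.9 CPM and the precursor one at 83.8 against 71.5 CPM. Gpr17 made up 79.4% to 80.5% of the committed sum at 6 months and 85.0% to 87.3% at 16 months. Without Gpr17, the log2 ratio of Bmp4 and Enpp6 to the precursor genes was lower at 16 months, from -2.89 ± 0.07 to -3.14 ± 0.13 (SD). The ages again did not overlap, with the nearest samples at -2.968 (6 months) and -3.009 (16 months). Bmp4 and Enpp6 themselves had log2 fold changes of 0.09 and -0.06, neither called, so this lower ratio went with the larger precursor sum. With the mean of the log2 CPM of each gene in place of the sum, so that each gene weighs the same, the difference was -0.01. The log2 ratio of Gpr17 to Pdgfra alone was higher at 16 months by 0.41. The ratio of the sums thus took its direction from Gpr17.

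**Figure D3:**
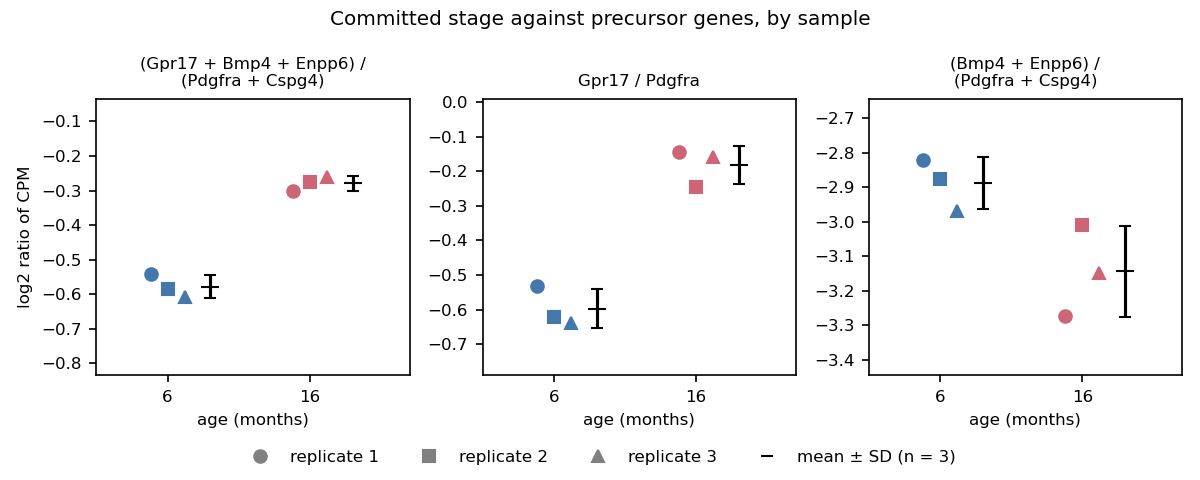
Log2 ratio of CPM (y axis, each panel spanning the same distance) against age in months (x axis) for the 3 committed stage genes over the 2 precursor genes, for Gpr17 over Pdgfra, and for Bmp4 and Enpp6 over the precursor genes, with 1 point per sample and the mean ± SD of 3 samples. The first panel rises by 0.30 and the last falls by 0.26 between the means.

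Per length of exon, in RPKM (CPM divided by the length of the merged exons in kilobases), Olig1 was the most abundant of the 10 genes at both ages, at 43.0 ± 1.81 RPKM at 6 months and 49.1 ± 7.98 RPKM at 16 months (SD, n = 3). At 6 months the order continued with Sox10 (14.0 RPKM), Olig2 (10.2), Myrf (7.47), Gpr17 (7.36), Pdgfra (5.77), Neu4 (1.72), Enpp6 (1.19), Cspg4 (1.15) and Bmp4 (0.918). The samples of Myrf and Gpr17 overlapped, as did those of Enpp6 and Cspg4, and the other neighbours lay apart. At 16 months Gpr17 stood at rank 3 with 11.5 ± 0.475 RPKM, with samples overlapping those of Sox10 (13.8 RPKM) above it and Olig2 (11.2 RPKM) below it. Cspg4 (1.36 RPKM) and Enpp6 (1.14 RPKM) changed places with overlapping samples, and Bmp4 was the lowest at 0.965 RPKM. Gpr17 was the gene that moved by the most places in the order.

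The 5 genes outside the 10 whose centred log2 CPM over the 6 samples lay nearest to the mean of Gpr17, Bmp4 and Enpp6 were Nfya, Nwd2, Slc35f3, Nde1 and Slc16a14, with root mean square differences of 0.0246 to 0.0263. The 3 genes themselves lay farther from their own mean, Bmp4 at 0.102, Enpp6 at 0.153 and Gpr17 at 0.216, and the median of all tested genes was 0.165. Bmp4 and Enpp6 lay below that median and Gpr17 above it. Each of the 3 is part of the mean, which the other tested genes are not, so the closeness of Bmp4 and Enpp6 is partly built in. The 5 named genes are near by selection.

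Among 19 other precursor genes that were tested, 17 had a log2 fold change above 0 and the median was 0.16, beside 50.3% and 0.0014 for all tested genes. Of these 1 was called: Tnr, which encodes the extracellular matrix protein tenascin-R, rose from 70.9 ± 1.30 to 87.7 ± 5.80 CPM (SD), a log2 fold change of 0.31 ± 0.06 (SE, edgeR quasi-likelihood test, Benjamini-Hochberg adjusted p = 0.0342). C1ql1, which encodes a secreted C1q-like protein, had a log2 fold change of 0.36 (adjusted p = 0.176 in the same test) and Susd5 one of 0.29 (adjusted p = 0.0961). With the offsets for GC content and length, 7 of the 19 were called, all higher, beside 7.16% of all tested genes called higher. Without any single sample at 6 months or replicate 3 at 16 months 0 were called by edgeR, Tnr included, against 5 and 6 without replicate 1 or 2 at 16 months, where 5.73% and 12.7% of all genes were called. With all samples, the 1 gene called higher stood beside 0.783% of all tested genes, and 8 of the 19 had an unadjusted p under 0.05, beside 17.4%. The summed level of this list was 943.5 to 962.2 CPM at 6 months and 1036 to 1064 CPM at 16 months. That of Pdgfra and Cspg4 was 70.51 to 72.96 CPM and 81.04 to 88.09 CPM. Which cells the transcripts of the list came from was not tested.

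Of 18 tested genes of the committed and newly formed oligodendrocyte beyond the members, 15 had a log2 fold change above 0, beside 50.3% of all tested genes, with a median of 0.18. Of the 18, 1 was called higher, beside 0.783% of all tested genes. This was Tcf7l2, a transcription factor of Wnt signaling in newly formed oligodendrocytes that is also on the list of thalamus markers, at 5.81 ± 0.105 CPM at 6 months and 7.89 ± 0.458 CPM at 16 months (SD), a log2 fold change of 0.44 ± 0.08 (SE, edgeR quasi-likelihood test, Benjamini-Hochberg adjusted p = 0.0259). Zfp488, a zinc finger regulator of oligodendrocytes, had a log2 fold change of 0.28 (adjusted p = 0.361 in the same test), and Nkx6-2, a homeobox gene of later differentiation, one of -0.35 (adjusted p = 0.169). With the offsets, 10 of the 18 were called, 7 higher and 3 lower, beside 7.16% and 6.72% of all tested genes. Without any single sample at 6 months or replicate 3 at 16 months 0 were called by edgeR, Tcf7l2 included, against 6 and 8 without replicate 1 or 2 at 16 months (5.73% and 12.7% of all genes). With all samples, 13 of the 18 had an unadjusted p under 0.05, beside 17.4% of all tested genes. The summed level of the list was 1125 to 1145 CPM at 6 months and 1158 to 1238 CPM at 16 months. That of Gpr17, Bmp4 and Enpp6 was 46.29 to 50.13 CPM and 67.63 to 71.44 CPM. The cells that these transcripts came from were not tested.

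The 26 genes of mature oligodendrocytes and myelin were divided, with a median log2 fold change of -0.05, and 8 above and 18 below 0, beside 50.3% of all tested genes above 0. Their summed level was 8598 to 8685 CPM at 6 months and 8467 to 8663 CPM at 16 months. By the edgeR quasi-likelihood test with Benjamini-Hochberg adjustment, 2 rose: Mal, a proteolipid of the myelin membrane, by 0.35 (adjusted p = 0.0275) and Cldn11, the claudin of myelin tight junctions, by 0.28 on the log2 scale (adjusted p = 0.0251). In the same test 4 fell, Aspa, the aspartoacylase, by 0.57 (adjusted p = 0.0313), Anln, a cytoskeletal septin partner, by 0.42 (adjusted p = 0.0194), Apod, a secreted lipocalin, by 0.37 (adjusted p = 0.0136) and Car2, a carbonic anhydrase, by 0.29 on the log2 scale (adjusted p = 0.0314). Mbp, which encodes myelin basic protein, had a log2 fold change of -0.05. The 6 calls were all lost without any single sample at 6 months or replicate 3 at 16 months, whereas 12 and 11 genes of the list were called without replicate 1 or 2 at 16 months (5.73% and 12.7% of all genes). With the offsets for GC content and length, 17 of the 26 were called, 6 higher and 11 lower, beside 7.16% and 6.72% of all tested genes. With all samples and without offsets, the 2 genes called higher and 4 called lower stood beside 0.783% and 0.888% of all tested genes. An unadjusted p under 0.05 was found for 15 of the 26, beside 17.4% of all tested genes.

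**Figure D4:**
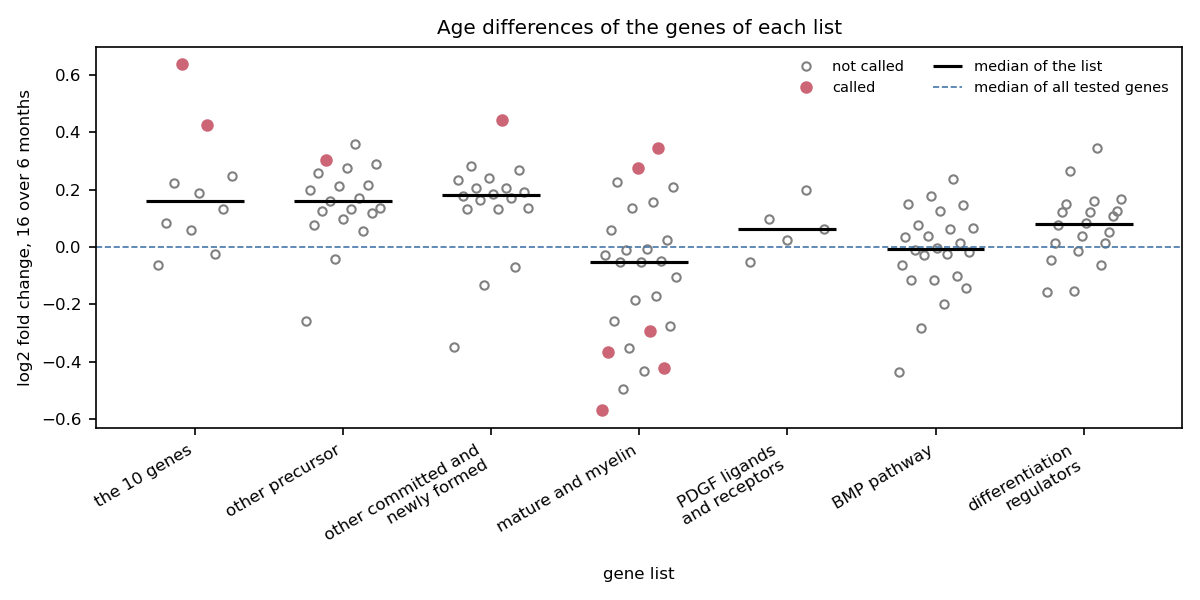
Log2 fold change of 16 over 6 months (y axis) of each tested gene by list (x axis), with filled points for genes called at an adjusted p under 0.05, black lines for list medians and the dashed line for the median of all tested genes. The medians were 0.16 for the 10 genes and for the other precursor genes, 0.18 for the committed and newly formed genes and -0.05 for the mature and myelin genes.

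Pdgfra and Bmp4 each belong to a signaling pathway with further members. Of the 5 other PDGF ligands and receptors, 0 were called by edgeR, with 0 at an unadjusted p under 0.05, and the ligand Pdgfa, which binds the Pdgfra receptor, had a log2 fold change of 0.06. The ligands Pdgfb and Pdgfc had log2 fold changes of 0.20 and 0.10. Of 24 genes of BMP signaling, 0 were called by edgeR and 4 had an unadjusted p under 0.05, a share near the 17.4% of all tested genes. Of these 24, 11 were above and 13 below 0, beside 50.3% of all tested genes above 0, with a median log2 fold change of -0.01. The ligands Bmp6 and Bmp5 had log2 fold changes of -0.44 and -0.28, and the receptor Acvr1 one of 0.24. Bmp5 was at 1.11 CPM at 6 months, with an SE of 0.23 on the log2 scale, and lay between -0.52 without replicate 1 and -0.15 without replicate 3 at 6 months.

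Of 20 regulators of oligodendrocyte differentiation, 0 were called by edgeR and 4 had an unadjusted p under 0.05, again near the 17.4% of all tested genes, with a median log2 fold change of 0.08. Of the 20, 15 were above and 5 below 0, beside 50.3% of all tested genes above 0. Lingo1, an inhibitor of differentiation, had a log2 fold change of 0.27 and Zfp536 one of 0.17. Among the sialidases related to Neu4, Neu3 had a log2 fold change of 0.30, Neu2 one of -0.13 and Neu1 one of 0.002, which turned below 0 in 5 of 14 alternatives, and 0 of the 3 were called by edgeR, with 1 at an unadjusted p under 0.05. Of 5 tested relatives of Enpp6, 1 was called lower, beside 0.888% of all tested genes. This was Enpp1, which fell by 0.45 on the log2 scale (edgeR quasi-likelihood test, Benjamini-Hochberg adjusted p = 0.0216), a call lost without any single sample at 6 months or replicate 3 at 16 months. Enpp3 had a log2 fold change of -0.79 (adjusted p = 0.250 in the same test) and Enpp4 one of -0.14. All 5 relatives lay below 0.

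Markers of other cells that share genes with the lineage were measured beside it. Of 10 markers of newborn neurons and the subventricular zone, 0 were called by edgeR and 6 had an unadjusted p under 0.05, beside 17.4% of all tested genes, with a median log2 fold change of 0.27 and a summed level of 173 to 178 CPM at 6 months and 169 to 172 CPM at 16 months. Of 9 tested proliferation genes, 0 were called by edgeR and 4 had an unadjusted p under 0.05, beside the same 17.4%, with a median of 0.44 and a summed level of 9.61 to 14.2 CPM at 6 months and 13.9 to 16.7 CPM at 16 months. Above 0 were 7 of the 10 newborn neuron markers and 7 of the 9 proliferation genes, beside 50.3% of all tested genes. Of 10 meningeal fibroblast markers, 2 (Igf2 and Slc47a1) were called lower by edgeR, beside 0.888% of all tested genes, with a median of -0.26. An unadjusted p under 0.05 was found for 5 of these 10, beside 17.4% of all tested genes, and 1 was above and 9 below 0. Of 10 astrocyte markers 1 (Gfap) was called lower, but 6 were above 0, beside 50.3% of all tested genes, with a median of 0.12. The summed level of astrocyte markers was 6645 to 6989 CPM at 6 months and 7110 to 7813 CPM at 16 months. Of 7 endothelial markers 1 (Kdr) was called lower, beside the same 0.888%, with a median of -0.10. An unadjusted p under 0.05 was found for 7 astrocyte and 3 endothelial markers, beside 17.4% of all tested genes. Of 10 microglia markers 0 were called, with 2 at an unadjusted p under 0.05, a share near 17.4%. Of the markers of other cells and regions that were called, Prkcd, Shox2, Synpo2, Lct, Dsp, Igf2 and Gfap kept the call with any 1 sample left out, and the others lost it without any single sample at 6 months or replicate 3 at 16 months. The part of these cells in the values of the oligodendrocyte genes was not tested.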

How the data were processed

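Per the labels and the study's methods, polyA RNA libraries were made with an Illumina TruSeq kit and sequenced as paired ends. The authors trimmed the reads, aligned them with STAR to mm10 (GRCm38) and deposited raw counts per Ensembl gene, 1 file per sample. The study's methods name HTSeq as the counter, which the 5 summary lines of each file match, whereas the submitters' processing notes list CASAVA 1.8.2, STAR 2.3.0e and featureCounts 1.5.0-p1. The Ensembl release and strand setting are not given in the sources used here.

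Summary lines were dropped (no gene: 22.0% to 27.7% of uniquely aligned reads). Of 38355 genes, 36602 matched GENCODE M21 by identifier, which gave names, positions, GC content and exon lengths. Counts were fitted over all genes with edgeR 4.0.16 in R 4.3.3 (TMM, filterByExpr, quasi-likelihood test, no covariates, Benjamini-Hochberg adjustment at 0.05), and SEs derived from the fold change and its F statistic. CPM and RPKM were TMM-scaled, and log2 CPM used a prior count of 2. On simulated counts for 17120 genes of this comparison, 200 of them altered, the test recovered 92.2% of genes with a log2 change of 1 and 74.5% with one of 0.5, and 4.62% of calls were false. The simulated counts were drawn independently for each gene, without the differences between libraries that followed GC content. These rates therefore need not hold for the measured counts.

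The 10 genes and the gene lists were chosen with earlier results of these data known. Of each list every called gene is named and, below 3 called, those with the largest fold change up to 3 (of lists of other cells, called genes). The 5 genes with the nearest profile are also named. A gene that this rule names among the regulators of differentiation is not reported here. The list of precursor genes and that of committed genes each held 1 further gene whose identifier no row carried. Alternatives were no filter or at least 10 counts in every sample, DESeq2 size factors, the newer quasi-likelihood fit of edgeR, the Wald test of DESeq2 1.42.0, a replicate block, offsets for GC content and length (medians over 20 bins of genes), both together, and each sample left out. They were applied to the named genes beyond the 10 after seeing the data. Counting limits hold for counting error alone, as PCR copies were not marked by molecular identifiers. Near-identical copies were searched with blastn 2.17.0 (97% identity over 100 bases) and only the overlapping partners of Gpr17 and Olig1 were found. Figures were drawn with matplotlib 3.10.9.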

Additional observations from a re-analysis of the deposited data

How the results depend on the processing

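The count of called genes was 286 in the analysis of all samples, 648 without a filter, 783 with the replicate block, 2376 with offsets for GC content and length, 3133 with block and offsets, 469 with DESeq2, and 48 to 2211 with 1 sample left out (48 to 58 without a sample at 6 months or replicate 3 at 16 months, 995 without replicate 1 and 2211 without replicate 2 at 16 months). Of the 10 genes 2 were called, against 4 with offsets, 5 with block and offsets and 1 to 5 with 1 sample left out (5 without replicate 2 at 16 months). Called other precursor genes numbered 1, against 2 with the block, 7 with offsets, 8 with both and 0 to 6 with 1 sample left out. Called committed and newly formed genes numbered 1, against 3 without a filter, with the block or with DESeq2, 10 with offsets, 11 with both and 0 to 8 with 1 sample left out. Called mature and myelin genes numbered 6, against 10 without a filter or with the block, 17 with offsets, 18 with both and 0 to 12 with 1 sample left out. Over 140 pairs of a member and an alternative, 122 kept direction and side of the threshold, 4 lost the call (Neu4), 11 gained it (Pdgfra 6, Olig1 3, Cspg4 2) and 3 reversed: Enpp6 to 0.018 without replicate 1 at 6 months (-0.13 to 0.018 with 1 sample left out), and Sox10 to 0.014 without replicate 3 at 6 months and to 0.065 without replicate 2 at 16 months (-0.13 to 0.065). Of the other named genes only Neu1 reversed, to -0.0020 without a filter, -0.043 with offsets and -0.043 with block and offsets, with -0.077 to 0.048 when 1 sample was left out. The log2 ratio of committed to precursor genes reversed to -0.014 with the mean of log2 CPM. The cause of these differences was not tested. Same-numbered samples share only a number: with the mean of each age taken off, same-numbered pairs correlated across genes at 0.180, 0.0958 and 0.0351, and not every sample correlated best with its own number (replicate 3 at 16 months had 0.0379 with replicate 2 at 6 months). Bmp4, at 69 to 92 counts, was the member whose precision depth limited most.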
